A study of Rattus norvegicus with 24 samples.

Results

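The genes described here are the creatine kinases Ckm, Ckb and Ckmt2, followed in the left ventricle of rats under salt load or treadmill exercise. Members were chosen as every probe set of an Affymetrix rat array whose annotation gave one of these symbols, which yielded 5 probe sets for 3 genes, of 8740 probe sets and 4737 named genes in all. Ckm was read by M10140_at, Ckb by M57664_at and M57664_g_at, and Ckmt2 by X59736mRNA_at and X59736mRNA_g_at. All 5 probe sets passed the filter on dim signals.

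All rats were of the Dahl salt-sensitive strain, which becomes hypertensive on a salty diet, so the controls carry the same susceptibility. They arrived at 5 weeks of age and entered the protocol at 6 weeks of age. High salt rats, a model of pathological hypertrophy, were given chow with 6% NaCl; exercised rats, a model of physiological hypertrophy, ran on a treadmill every day for 6 weeks, with 3 weeks of rising load and then 90 minutes a day at 16 m/min on a 5 degree incline; controls stayed sedentary on normal chow and were matched for age. The titles give 3 arrays per group: high salt, exercise and control at 3 weeks, the same at 6 weeks, and high salt and control at 15 weeks, where no exercise group was analysed here. The starting point of this count of weeks is not in the labels, nor is a statement that each array came from its own animal, so p-values measure the spread between arrays, which may be technical. At 3 weeks 2 arrays were deposited with identical values under both the exercise and the control label. They are described here as arrays with both labels, and high salt at 3 weeks was set against the 4 distinct arrays without salt (1 exercise, 2 with both labels, 1 control).

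Creatine kinases move a phosphate between ATP and creatine, which lets a muscle cell store energy as phosphocreatine and carry it to where ATP is spent. The muscle subunit encoded by Ckm and the brain subunit encoded by Ckb pair in the cytosol as MM, MB or BB dimers. The enzyme encoded by Ckmt2, the sarcomeric mitochondrial creatine kinase, sits between the mitochondrial membranes and charges creatine with newly made ATP. In adult heart muscle the MM form is the main cytosolic enzyme, and a higher share of the brain subunit is known from developing and from overloaded hearts, which is why the balance of Ckm to Ckb was followed.

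The stretch of 250 bases before the annotated start of each gene was taken from RefSeq on the GRCr8 build, where all 3 symbols matched. The windows are chr1:88189211-88189460 on the plus strand for Ckm, chr6:136553465-136553714 on the minus strand for Ckb and chr2:24845512-24845761 on the minus strand for Ckmt2. They are printed in gene direction, and capitals mark matches to the motifs searched, described after them.
Ckm: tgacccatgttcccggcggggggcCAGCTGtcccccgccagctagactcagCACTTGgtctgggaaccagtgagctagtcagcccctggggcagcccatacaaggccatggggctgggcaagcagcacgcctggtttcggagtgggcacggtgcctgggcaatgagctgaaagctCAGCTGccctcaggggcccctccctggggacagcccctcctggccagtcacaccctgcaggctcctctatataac
Ckb: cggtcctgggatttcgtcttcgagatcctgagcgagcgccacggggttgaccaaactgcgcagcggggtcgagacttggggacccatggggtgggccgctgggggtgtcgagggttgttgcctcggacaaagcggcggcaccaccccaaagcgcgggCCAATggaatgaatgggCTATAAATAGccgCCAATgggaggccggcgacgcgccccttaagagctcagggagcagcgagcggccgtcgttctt
Ckmt2: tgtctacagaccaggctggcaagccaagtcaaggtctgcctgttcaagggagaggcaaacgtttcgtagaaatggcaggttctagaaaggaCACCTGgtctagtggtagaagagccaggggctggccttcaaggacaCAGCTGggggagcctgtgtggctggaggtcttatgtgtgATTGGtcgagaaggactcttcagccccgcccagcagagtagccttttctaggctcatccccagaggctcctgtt
The motifs searched on both strands were the E-box (CANNTG), bound by muscle regulatory factors, the CCAAT box (CCAAT), the TATA box (TATAAA) and the site of the MEF2 factors. The Ckm window held 3 E-boxes and no exact match to the other motifs. The exact TATAAA search misses other spellings, such as the tatataa near the end of this window. The Ckb window held 2 CCAAT boxes and 1 TATA box, which lies inside a match to the MEF2 site, and no E-box. The Ckmt2 window held 2 E-boxes and 1 CCAAT box, read on the opposite strand. Of 33469 rat promoter windows of this length, 65.5% held an E-box, 34.0% a CCAAT box, 12.9% a TATA box and 2.96% the MEF2 site. These matches describe the letters only.

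The tissue label was set against marker genes first. All 7 cardiac myocyte markers on the array (Myh6, Tnnt2, Tnni3, Actc1, Myl2, Myl3 and Pln, of 8 listed) were tested, and their summed intensity lay between 150993 and 260520 in every array. Among markers of skeletal muscle other than Acta1, which heart also makes, the highest array had 733.6 for Myh1, 313.2 for Tnnt3, 171.8 for Myh4, 42.4 for Myh2 and 32.7 for Tnni2; Myh1 had a median of 397.3. The mean intensity over the 22 distinct arrays was 19864 for Ckm, above 99.5% of probe sets. It was 4513 for Ckb by M57664_at and 682 by M57664_g_at, above 96.1% and 81.7% of probe sets. For Ckmt2 it was 5631 by X59736mRNA_at and 13806 by X59736mRNA_g_at, above 96.9% and 99.1%. Intensities of different probe sets depend on the probes, so these levels do not rank the genes. The other creatine kinase on the array, Ckmt1, the ubiquitous mitochondrial form, had a mean of 131.3 by X59737mRNA_at and 48.6 by X59737mRNA_g_at.

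The RNA of some control arrays stood apart. The ratio of the 3' to the 5' GAPDH probe sets, which rises when RNA is broken or incompletely copied, reached 1.58, 2.48 and 3.99 in control arrays 1, 2 and 3 of 6 weeks, and 1.09, 1.52 and 1.58 in controls of 15 weeks. It lay between 0.989 and 1.18 in the 16 other distinct arrays. The same ratio for beta-actin was also raised in the 6-week controls, at 1.98 to 3.29. In the 15-week controls it was 1.14 to 1.56, against 1.32 to 1.68 with high salt at 15 weeks, so it was not raised there. The ratio between the Ckmt2 probe sets, X59736mRNA_g_at over X59736mRNA_at, moved with the GAPDH ratio. The 6-week controls had 2.75, 2.83 and 4.98 for it and the 15-week controls had 2.23, 3.08 and 2.90, against 1.97 to 2.71 in the other 16 arrays. For Ckb the ratio of M57664_at to M57664_g_at was 10.25 in control array 3 of 6 weeks and 10.24 in high salt array 2 of 15 weeks, and 4.85 to 8.58 in the remaining 20 arrays. Every comparison with the 6-week controls below carries this difference, and its part in those results was tested only by the alternatives named beside them.

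**Figure D1:**
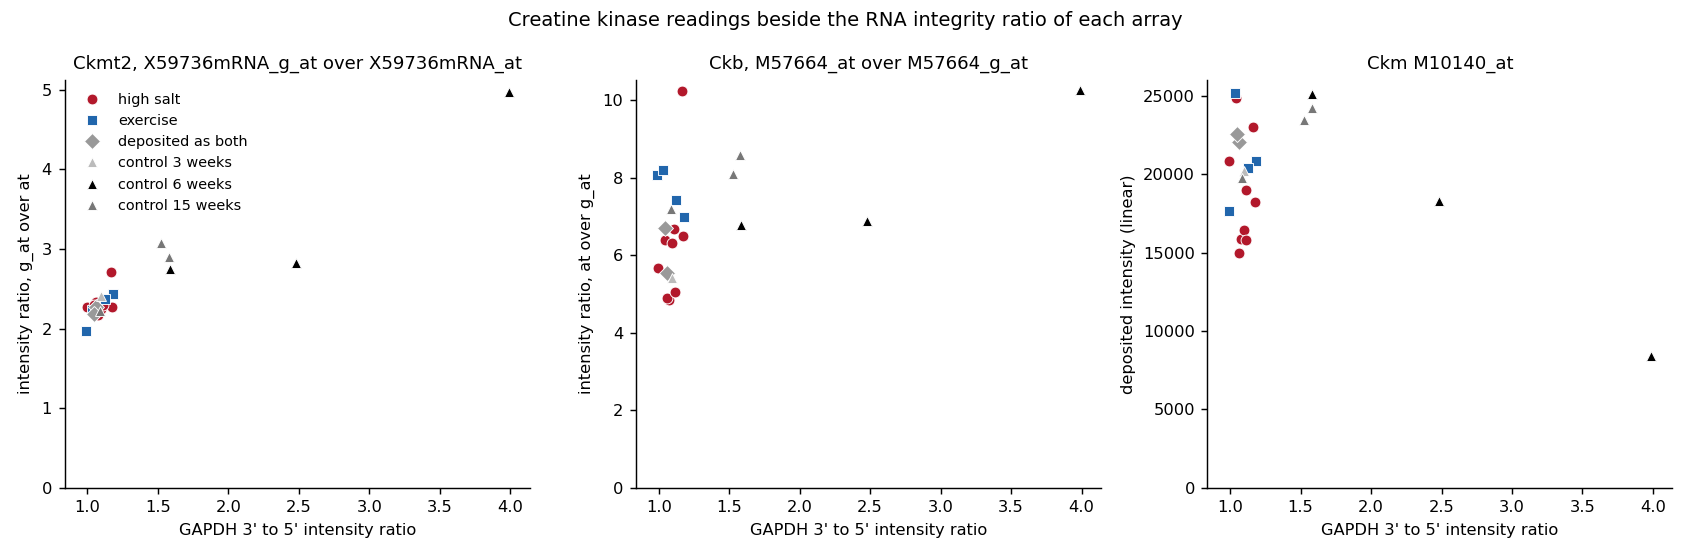
Creatine kinase readings against the GAPDH 3' to 5' ratio of each of the 22 distinct arrays (horizontal axes, intensity ratio). The vertical axes show the ratio between the Ckmt2 probe sets, the ratio between the Ckb probe sets and the linear intensity of Ckm; control array 3 of 6 weeks lies far to the right with a GAPDH ratio of 3.99, a Ckmt2 ratio of 4.98 and the lowest Ckm intensity of 8394.

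Ckm, the muscle subunit, differed little between groups. At 3 weeks the high salt arrays read 20837, 15842 and 14970.2, the exercise array 20851, the arrays with both labels 22027 and 22583, and the control array 20183. High salt held the 2 lowest of these 7 values, but its other array, at 20837, lay among those without salt. At 6 weeks the intensities were 18206, 24832 and 16412 with high salt, 17674, 20390 and 25183 with exercise, and 25097, 18304 and 8394 in controls. The value of 8394, in the control array with the GAPDH ratio of 3.99, was the lowest of all 22 arrays, and the other groups overlapped widely. At 15 weeks high salt read 18998, 23010 and 15829, against 19730, 23452 and 24214 in controls. In no pair of the 7 groups did the ranges of Ckm separate (0 of 21 pairs). Such pairs were counted for the members only, here and below. The counts therefore do not show whether a gene separates more or fewer groups than most probe sets do. Ordered by mean, high salt at 3 weeks was lowest with 17216 ± 3165 and control at 15 weeks highest with 22466 ± 2399 (SD, n = 3 each), and every group overlapped its neighbour.

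Ckb, the brain subunit, had its lowest group mean in exercise at 6 weeks by both probe sets, and M57664_at spread less over the arrays than Ckm. By M57664_at the 3-week intensities were 5096, 4857 and 5415 with high salt, 6293 in the exercise array, 4270 and 4012 in the arrays with both labels and 5142 in the control array. At 6 weeks they were 3640, 4979 and 4325 with high salt, 3004, 3855 and 2739 with exercise, and 3524, 3876 and 4046 in controls. At 15 weeks they were 4706, 5406 and 4186 with high salt and 4445, 6367 and 5106 in controls. The exercised rats of 6 weeks gave the lowest mean, 3199 ± 583, and the controls of 15 weeks the highest, 5306 ± 976 (SD, n = 3 each). The ranges separated in 7 of 21 pairs of groups, each with the exercise or control arrays of 6 weeks on the lower side. How many pairs separate for a typical probe set was not counted.

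The dimmer Ckb probe set, M57664_g_at, gave the same lowest group. It read 899, 1002 and 1106 with high salt at 3 weeks, 900.2 in the exercise array, 769 and 598 in the arrays with both labels and 949 in the control array. At 6 weeks it read 559, 779 and 685 with high salt, 373, 519 and 334 with exercise and 519, 563 and 395 in controls. At 15 weeks it read 705, 528 and 830.0 with high salt and 617, 787 and 595 in controls. The lowest mean was again exercise at 6 weeks, 409 ± 97.6, and the highest was high salt at 3 weeks, 1002 ± 104 (SD, n = 3 each), so the upper end of the order differed between the probe sets. Ranges separated in 11 of 21 pairs of groups.

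Ckmt2, the mitochondrial enzyme, had the narrowest range over all arrays by its bright probe set. X59736mRNA_g_at read 13225, 11648 and 11724 with high salt at 3 weeks, 12267 in the exercise array, 13023 and 12733 in the arrays with both labels and 13603 in the control array. At 6 weeks it read 12577, 12588 and 17097 with high salt, 14788, 12954 and 14783 with exercise and 18101, 15687 and 14147 in controls. At 15 weeks it read 12445, 10006 and 12747 with high salt and 14807, 18149 and 14625 in controls, and these last groups did not overlap. Over all 22 arrays its highest value was 1.81 times its lowest, against 3.00 for Ckm and 2.32 for Ckb by M57664_at. Its order by mean ran from high salt at 15 weeks, 11733 ± 1503, to control at 6 weeks, 15979 ± 1993 (SD, n = 3 each), and each group overlapped the next. Its ranges nevertheless separated in 7 of 21 pairs of groups. The other probe set, X59736mRNA_at, ranged from 2844 in control array 3 of 6 weeks to 7626 in high salt array 3 of 6 weeks, and its ranges separated in 0 of 21 pairs. In bulk tissue, less RNA per cell and fewer cells of a type cannot be told apart for any of these values.

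**Figure D2:**
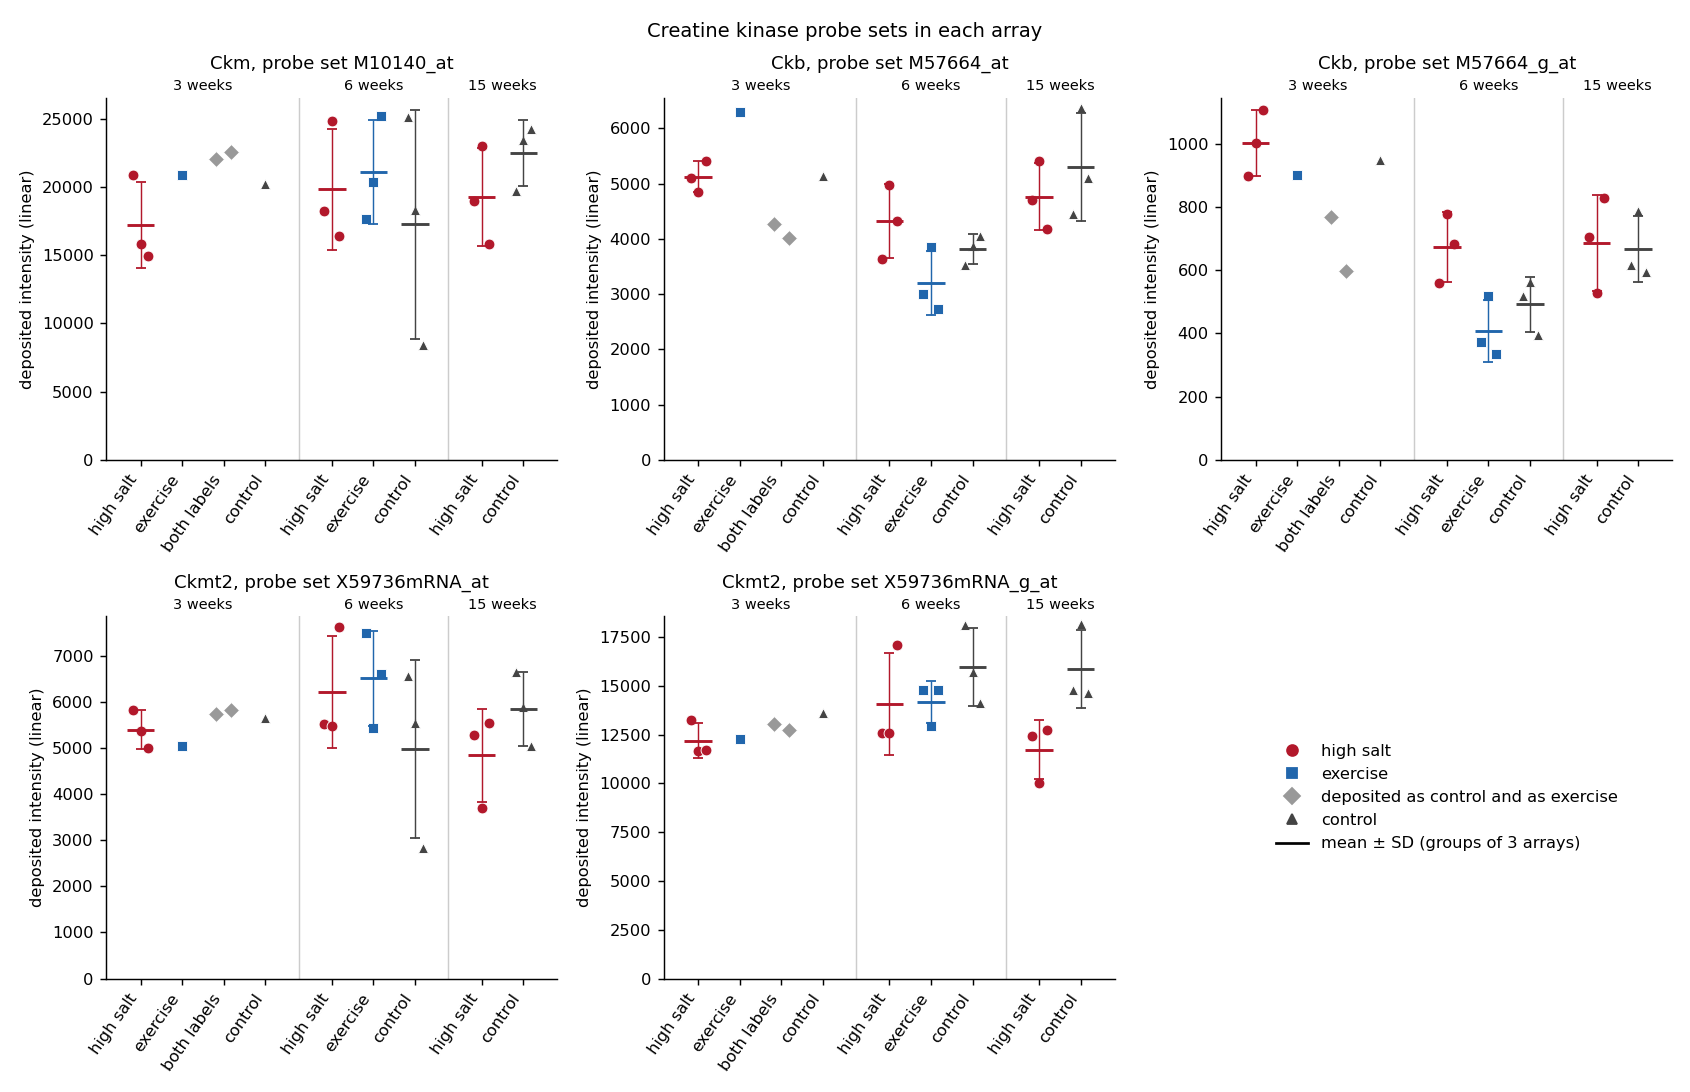
Deposited linear intensity (vertical axes) of the 5 creatine kinase probe sets in each of the 22 distinct arrays, by group and week, with mean and SD where a group had 3 arrays. Both Ckb panels have their lowest mean in exercise at 6 weeks (3199 and 409), while the Ckm groups overlap throughout.

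Whether any group mean differed was tested by limma's F-test over the 8 labelled groups, with 20 arrays and without the arrays of both labels. Ckb passed by both probe sets, with F = 4.41 and adjusted p = 0.0373 for M57664_at and F = 6.79 and adjusted p = 0.00749 for M57664_g_at. Ckm did not pass (adjusted p = 0.844), nor did Ckmt2 (adjusted p = 0.743 by X59736mRNA_at and 0.338 by X59736mRNA_g_at). Thus 2 of 5 probe sets, both of 1 gene, were called, where 13% of the 6555 tested probe sets were. M57664_g_at kept its call in each of 20 fits that left out 1 array, with adjusted p between 0.00577 and 0.0260. M57664_at kept it in 10 of 20, with adjusted p between 0.0253 and 0.124. It missed the threshold without high salt array 1, 2 or 3 of 3 weeks, array 3 of 6 weeks or array 1 of 15 weeks, without exercise array 1 or 3 of 6 weeks, or without control array 2 of 6 weeks or 2 or 3 of 15 weeks. Without the 6-week controls, in a fit chosen after the data were seen, the adjusted p was 0.0718 for M57664_at and 0.00846 for M57664_g_at.

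Which groups differ was asked in pairwise comparisons, and there 0 of the 5 probe sets passed at an adjusted p under 0.05 in limma. The study's main contrast, salt against no load late in the protocol, called 7.17% of all tested probe sets at 15 weeks, and no creatine kinase. Ckmt2 came nearest: X59736mRNA_g_at averaged 11733 ± 1503 with high salt and 15861 ± 1984 in controls (SD, n = 3 each), a log2 fold change of -0.43 ± 0.17 (SE) with a 95% confidence interval of -0.78 to -0.09. Its unadjusted limma p was 0.0171 and its adjusted p 0.134. The GAPDH ratio was 1.11 to 1.16 with high salt and 1.09, 1.52 and 1.58 in controls 1, 2 and 3. This probe set had its highest means in the control groups of 6 and 15 weeks, which hold the arrays with raised GAPDH ratios. The beta-actin ratio instead had the higher mean with high salt, 1.52 against 1.32 in controls, with overlapping ranges. The hexokinase ratio also overlapped, at 1.80 to 2.29 with high salt and 2.02 to 3.02 in controls. X59736mRNA_g_at read 14807, 18149 and 14625 in controls 1, 2 and 3 in that order. With the GAPDH ratio as a covariate in the limma model, the difference between high salt and control was -0.50 ± 0.17 (limma adjusted p = 0.0834). The ratio varied most within the 6-week controls, from 1.58 to 3.99, so this fit leans on them. Apart from it, the part of RNA quality in the 15-week difference was not tested. Without the covariate, the difference by X59736mRNA_at was -0.28 ± 0.25, with overlapping groups (limma adjusted p = 0.605). Ckm differed by -0.23 ± 0.29 and Ckb by -0.15 ± 0.18 and 0.03 ± 0.21 in that comparison. Markers of other cell types moved at the same time. The fibroblast summed intensity over 5 of 5 listed genes (Col1a1, Col1a2, Col3a1, Dcn and Pdgfra) was 10911 to 20826 with high salt and 25372 to 34163 in controls, and 3 of the 5 fell. Erythroid markers went the other way, at 31916 to 39002 with high salt and 18166 to 24498 in controls over 3 of 5 listed genes, of which 2 rose. The sums of endothelial markers, 820 to 952 with high salt and 1145 to 1661 in controls over 3 of 5 listed genes, and of leukocyte markers, 1561 to 2180 with high salt and 3184 to 4022 in controls over 3 of 5, did not overlap either; 0 endothelial and 1 leukocyte gene fell. The part of these in the Ckmt2 value was not tested.

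At 6 weeks, high salt against control called 14.3% of tested probe sets and exercise against control 7.84%, with the same control arrays in both, and again no creatine kinase. Ckm was higher by 0.31 ± 0.29 with high salt and by 0.41 ± 0.29 with exercise (log2, SE; adjusted p = 0.504 and 0.405). These values rest on control array 3: without it the differences were -0.14 for high salt and -0.04 for exercise. With the GAPDH ratio as a covariate they were -0.75 ± 0.38 and -0.72 ± 0.40, also not called. Ckb by M57664_at differed by 0.17 ± 0.18 with high salt and -0.26 ± 0.18 with exercise, and M57664_g_at by 0.43 ± 0.21 and -0.25 ± 0.21. The Ckmt2 probe sets pointed opposite ways against these controls. X59736mRNA_at gave 0.38 ± 0.25 for high salt and 0.46 ± 0.25 for exercise, and X59736mRNA_g_at gave -0.19 ± 0.17 and -0.17 ± 0.17.

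High salt against exercise at 6 weeks compares the pathological with the physiological load directly. The 6-week controls do not enter its differences, but they do enter the shared estimate of spread behind its limma SE, intervals and p. This comparison called 0.0153% of tested probe sets, which is 1, and that was not a creatine kinase. Of all tested probe sets, 7.05% had an unadjusted p under 0.05. Ckb averaged 4315 ± 670 with high salt and 3199 ± 583 with exercise by M57664_at (SD, n = 3 each), a log2 difference of 0.43 ± 0.18 with an interval of 0.06 to 0.80 and overlapping arrays (adjusted p = 0.634). By M57664_g_at it averaged 674 ± 110 with high salt and 409 ± 97.6 with exercise. The groups did not overlap there, at a log2 difference of 0.68 ± 0.21, an interval of 0.24 to 1.13, an unadjusted p of 0.00453 and an adjusted p of 0.438. Ckm differed by -0.10 ± 0.29 and Ckmt2 by -0.07 ± 0.25 and -0.02 ± 0.17. Smooth muscle and nerve also make the brain subunit. The smooth muscle sum over 5 of 6 listed genes was 12108 to 13763 with high salt and 12080 to 13633 with exercise, so it overlapped. Des and Acta2 weigh most in that sum, with median intensities of 8587 and 3048 over the arrays. Tagln, Myh11 and Cnn1 had medians of 373, 351 and 142, so the sum says little about them. Acta2 is also counted below in the fetal gene programme of the loaded heart. The overlap of the sum is therefore no measure of smooth muscle content, whose part in the Ckb value was not tested. Of the 5 genes, 0 rose and 0 fell between high salt and exercise, with a median log2 change of 0.10. The neural sum over 5 of 9 listed genes was 554 to 764 with high salt and 495 to 687 with exercise; Mbp and Nefm were too dim to be tested. The cardiac myocyte sum did not overlap, at 195937 to 260520 with high salt and 154548 to 195532 with exercise, and its part in the Ckb value was not tested.

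**Figure D3:**
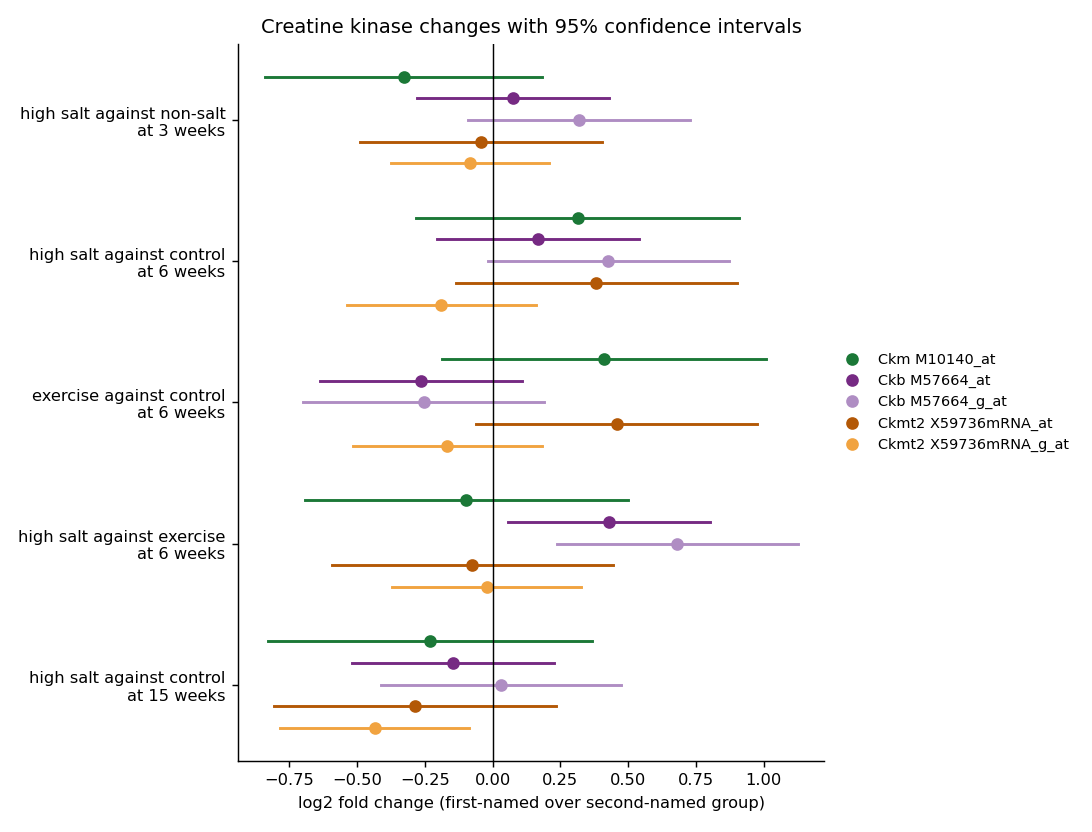
Log2 fold changes of the 5 creatine kinase probe sets (horizontal axis, first-named over second-named group) with 95% confidence intervals from limma, for 5 comparisons (vertical axis). The intervals of both Ckb probe sets lie above 0 for high salt against exercise at 6 weeks (0.06 to 0.80 and 0.24 to 1.13), and that of Ckmt2 X59736mRNA_g_at lies below 0 at 15 weeks; none passed the adjusted threshold.

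At 3 weeks, high salt against the 4 arrays without salt called 0.153% of probe sets, with no creatine kinase among them. Ckm differed by -0.33 ± 0.25 (interval -0.84 to 0.18) and Ckb by 0.08 ± 0.17 and 0.32 ± 0.20. Ckmt2 differed by -0.04 ± 0.22 and -0.08 ± 0.14.

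Time was followed within high salt and among the arrays without salt. High salt at 6 weeks against 3 weeks called 0.0763% of probe sets, high salt at 15 weeks against 6 weeks 3.19%, and control at 15 weeks against the 3-week arrays without salt 0.0153%; none was a creatine kinase. The largest member value among them was Ckb by M57664_g_at in high salt at 6 weeks against 3 weeks, at -0.55 ± 0.21 (adjusted p = 0.983), where the ranges were apart. By M57664_at that value was -0.26 ± 0.18. Ckmt2 by X59736mRNA_g_at was 0.29 ± 0.14 in control at 15 weeks against the 3-week arrays without salt (limma adjusted p = 0.639). Those 3-week arrays are not all controls, and controls 2 and 3 of 15 weeks had raised GAPDH ratios of 1.52 and 1.58. Over the other settings this value ran from 0.08 to 0.37. The difference between the salt effect at 15 weeks and that at 6 weeks, tested as an interaction, called 1.6% of probe sets. Ckm had -0.55 ± 0.40 there, Ckb -0.31 ± 0.25 and -0.40 ± 0.30, and Ckmt2 -0.67 ± 0.35 and -0.25 ± 0.24, none of which passed.

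Exercise at 6 weeks against the 3-week arrays without salt was compared after the low Ckb values had been seen. The 3-week side includes 1 array labelled exercise and the 2 arrays with both labels, so it is not a purely sedentary baseline. Ckb averaged 3199 ± 583 (SD, n = 3) in exercise at 6 weeks and 4929 ± 1030 (SD, n = 4) at 3 weeks by M57664_at, and 409 ± 97.6 against 804 ± 157 by M57664_g_at. No array overlapped in either probe set. The log2 differences were -0.61 ± 0.17 (adjusted p = 0.512) and -0.91 ± 0.20 (unadjusted p = 0.000124, adjusted p = 0.162). The comparison called 0% of probe sets in limma, with 280 at an unadjusted p under 0.05. Ckm stood at -0.04 ± 0.25 and Ckmt2 at 0.22 ± 0.22 and 0.13 ± 0.14. The comparison mixes exercise with week, and these cannot be told apart in it. The sedentary 6-week controls also had low Ckb, at 3815 ± 266 and 492 ± 87.4 (SD, n = 3). By M57664_g_at their range too was apart from that of the 3-week arrays without salt. Against those controls exercise differed by -0.26 ± 0.18 and -0.25 ± 0.21 (limma adjusted p = 0.386 and 0.493).

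The muscle to brain isoform balance was taken in each array as log2 of Ckm minus log2 of Ckb by M57664_at, each intensity raised by 40 before the logarithm. Probe sets differ in affinity, so only differences of this balance between arrays have a meaning. At 3 weeks it was 2.02, 1.70 and 1.46 with high salt, 1.72 in the exercise array, 2.36 and 2.48 in the arrays with both labels and 1.96 in the control array. At 6 weeks it was 2.31, 2.31 and 1.91 with high salt, 2.54, 2.39 and 3.18 with exercise, and 2.82, 2.23 and 1.05 in controls. At 15 weeks it was 2.00, 2.08 and 1.91 with high salt and 2.14, 1.87 and 2.24 in controls. The exercised rats of 6 weeks had the highest mean, 2.70 ± 0.42, and high salt at 3 weeks the lowest, 1.73 ± 0.28 (SD, n = 3 each). Only the gap between exercise and the next group in the order, high salt at 6 weeks, was free of overlap.

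High salt against exercise at 6 weeks gave a balance lower by a log2 difference of -0.53 ± 0.28 (SE), which is 0.694 of the exercise ratio of Ckm to Ckb. Its two-sided exact permutation p was 0.1, the smallest that 3 against 3 arrays allow, and 0.429 after adjustment over 5 comparisons. Without exercise array 3, which had the highest balance of all, the difference was -0.29, and over the 6 arrays left out in turn it ran between -0.68 and -0.29 with exact permutation p of 0.1 to 0.3. With M57664_g_at in place of M57664_at it was -0.78, also without overlap and with exact p = 0.1. High salt against the arrays without salt at 3 weeks gave -0.40 ± 0.24 (exact permutation p = 0.171, adjusted 0.429). With both arrays of double label left out it was -0.12, at n = 3 and 2. High salt against control at 15 weeks gave -0.09 ± 0.12 (exact permutation p = 0.5, adjusted 0.625).

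Against the 6-week controls the balance was 0.15 ± 0.54 for high salt and 0.67 ± 0.57 for exercise (exact permutation p = 0.8 and 0.4, adjusted 0.8 and 0.625). Control array 3 stood at 1.05, far below the other 2 controls. Without it the values were -0.35 for high salt and 0.18 for exercise. With the 4 controls of 3 and 15 weeks in place of the 6-week controls, exercise gave 0.65, with an exact permutation p of 0.0286, the smallest for 3 against 4 arrays and not adjusted. For a value over all weeks the arrays without salt were joined, which at 6 weeks puts the 3 exercise arrays beside the 3 controls, so it does not set salt against controls alone. The balance with high salt minus that without salt then averaged -0.23 (exact permutation within weeks, p = 0.202), with -0.40, -0.19 and -0.09 at 3, 6 and 15 weeks; at 6 weeks the value against controls alone had the opposite sign, as given above. That average moved to -0.31 without control array 3 of 6 weeks (exact permutation p = 0.0184) and to -0.45 with the other Ckb probe set (p = 0.0292 by the same test). Without all 6-week controls, a choice made after the data were seen, it was -0.34 (exact permutation p = 0.0163), and without the arrays of both labels, chosen likewise, -0.13 (p = 0.447 by the same test).

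**Figure D4:**
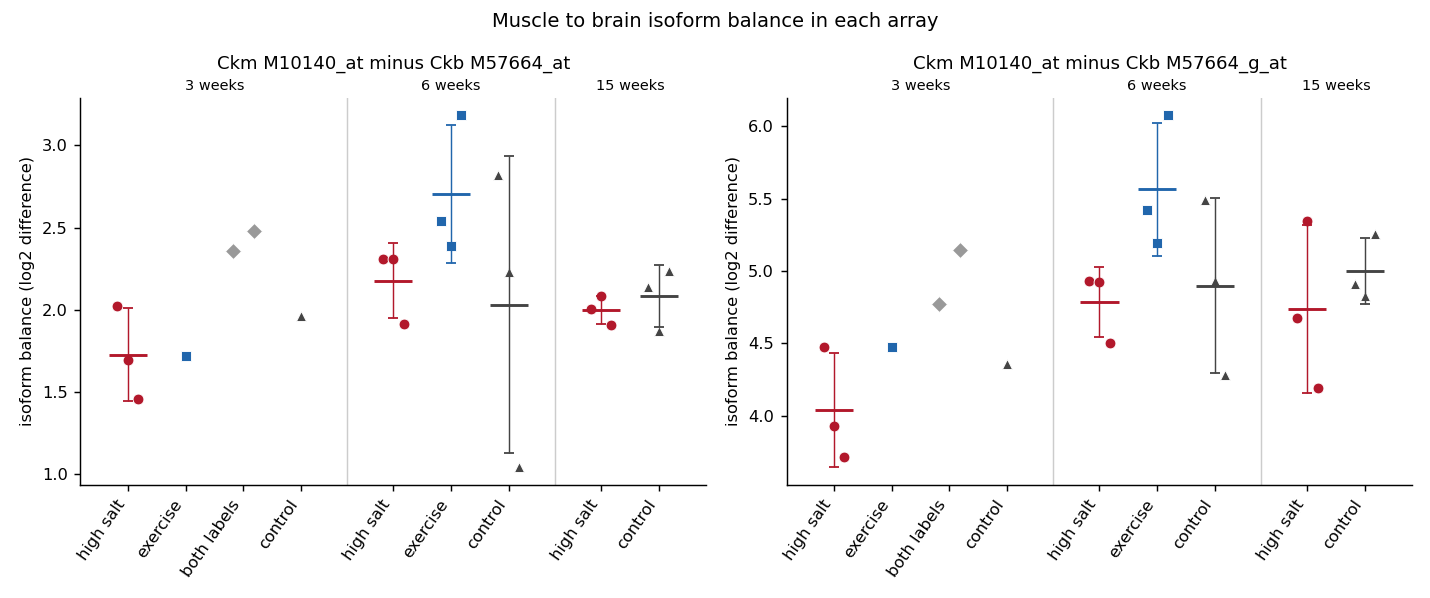
Isoform balance of each of the 22 distinct arrays (vertical axes, log2 Ckm minus log2 Ckb) by group and week, with M57664_at on the left and M57664_g_at on the right; bars are mean and SD of groups of 3. The 3 exercise arrays of 6 weeks lie above all 3 high salt arrays of that week in both panels, and control array 3 of 6 weeks is the lowest point on the left at 1.05.

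Across the 22 arrays the brightest probe sets of the members showed weak correlations. Pearson's r of the log2 intensities was 0.064 between Ckm and Ckb by M57664_at, 0.095 between Ckm and Ckmt2 by X59736mRNA_g_at, and -0.27 between Ckb and Ckmt2; these arrays share groups and RNA quality, and the values are descriptions. By X59736mRNA_at the r of Ckmt2 with Ckm was 0.49, and -0.10 without control array 3 of 6 weeks (n = 21), an omission chosen after the data were seen. With Ckb by M57664_at it was -0.33, and -0.56 without that array. Between the 2 probe sets of the same gene, r was 0.76 for Ckb and only 0.49 for Ckmt2. Without that array these were 0.78 and 0.73, so weak r between genes may in part reflect the probe sets, which was not tested. The genes most like Ckm were Acaa2, a mitochondrial thiolase of fatty acid oxidation (r = 0.89), Suclg1, a subunit of succinyl-CoA ligase (0.87), the ATP synthase subunits Atp5f1c (0.83) and Atp5f1d (0.82), and Ppard, a nuclear receptor for fatty acids (0.80). Those most like Ckb were Bcl2l2, a survival protein of the Bcl-2 family (0.73), Capns1, the small calpain subunit (0.70), S100g, a calcium-binding protein (0.68), Gnai2, an inhibitory G protein subunit (0.65), and Ptpn21, a tyrosine phosphatase (0.65). Those most like Ckmt2 were Ndufa5 (0.84) and Ndufb5 (0.74) of respiratory complex I, Sys1, a Golgi protein (0.81), Psmb5, a proteasome subunit (0.76), and Cox5a, a subunit of cytochrome c oxidase (0.74). The r values of these lists were taken over all 22 arrays. They include control array 3 of 6 weeks, the lowest of all for Ckm, and how far they rest on it was not tested.

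The other genes of the phosphocreatine system were read by the brightest tested probe set of each. Of the 3 genes of creatine synthesis and transport, 1 fell at 15 weeks with high salt: Gamt, the methyltransferase that completes creatine, by a log2 change of -0.97 ± 0.28 (SE; limma adjusted p = 0.0389), where 7.17% of all tested probe sets were called. Gatm, which makes its substrate, had -0.57 ± 0.32 and Slc6a8, the creatine transporter, 0.48 ± 0.24, neither called, and the list's median was -0.57 against -0.04 over all tested probe sets. None of the 3 was called at 6 weeks against control, at 3 weeks, or between high salt and exercise, where Gamt had -0.96 ± 0.28 (adjusted p = 0.337). Ckmt1 was called in none of these comparisons; its largest value was -0.86 ± 0.31 in exercise against control at 6 weeks (adjusted p = 0.0962).

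The counts that follow stand beside 14.3% of all tested probe sets called for high salt and 7.84% for exercise against the 6-week controls, and with 4 to 6 genes a list, a single call says little about the list. Of 4 tested adenylate and nucleoside diphosphate kinases, which also pass phosphates between nucleotides, 1 fell with high salt at 6 weeks: Ak3, a mitochondrial kinase, by -0.84 ± 0.28 (limma adjusted p = 0.0487). Of 4 tested genes of mitochondrial ATP export, 1 rose against the 6-week controls: Vdac1, the pore of the outer membrane, by 2.73 ± 0.44 with high salt and 2.82 ± 0.44 with exercise (limma adjusted p = 0.000769 and 0.00136). Its value between high salt and exercise was -0.09 ± 0.44. Of 4 tested users of ATP, 1 rose with high salt at 6 weeks, Atp2a2, the calcium pump of the sarcoplasmic reticulum, by 0.65 ± 0.20 (limma adjusted p = 0.0316). Of 6 tested regulators of muscle energy genes, 1 rose there, Gata4, a cardiac transcription factor, by 0.67 ± 0.22 (limma adjusted p = 0.0484). In these 4 lists none was called at 3 or 15 weeks against arrays without salt, nor between high salt and exercise. The 6-week calls carry the GAPDH difference of those controls.

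The fetal gene programme, the set of genes by which a loaded heart is usually recognised, gives the scale of the load beside the creatine kinases. With high salt, Nppa, atrial natriuretic peptide, rose by 1.62 ± 0.31 at 3 weeks and by 2.41 ± 0.30 at both 6 and 15 weeks (limma adjusted p = 0.0246, 0.000124 and 5.89e-05). Acta1, skeletal actin, rose by 0.93 ± 0.16, 1.07 ± 0.18 and 1.07 ± 0.18 at 3, 6 and 15 weeks. Of the 6 listed genes, 3 rose at 3 weeks, 3 rose and 1 fell (Acta2, -0.91 ± 0.26) at 6 weeks, and 2 rose at 15 weeks. Of all tested probe sets, 0.153%, 14.3% and 7.17% were called at 3, 6 and 15 weeks. The list's median log2 change was 0.56, 0.79 and -0.01 in that order, against -0.05, -0.15 and -0.04 over all tested probe sets. At 15 weeks the list as a whole thus did not rise. With exercise at 6 weeks, Nppa rose by 1.19 ± 0.30 and Acta2 fell by 1.01 against the same controls (limma adjusted p = 0.0190 and 0.0230). That comparison called 7.84% of all tested probe sets. All these 6-week calls carry the GAPDH difference of the controls. With the GAPDH ratio as a covariate, exercise against control called 0 probe sets, so neither exercise call was kept. With the controls of 3 and 15 weeks it called 3. Between high salt and exercise, where 0.0153% of all tested probe sets were called, 1 of 6 rose: Nppb, brain natriuretic peptide, by 1.73 ± 0.28 (limma adjusted p = 0.0295). In the same arrays the Ckb values with high salt were 0.08 ± 0.17, 0.17 ± 0.18 and -0.15 ± 0.18 at 3, 6 and 15 weeks by M57664_at and 0.32 ± 0.20, 0.43 ± 0.21 and 0.03 ± 0.21 by M57664_g_at, and none was called.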

How the data were processed

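Total RNA of rat left ventricle was hybridised to 1-colour Affymetrix arrays. The authors deposited a linear intensity for each of 8799 probe sets on every array; how probes were summarised is not given in the sources used here. Trimmed column means (2% trim) lay between 500.767 and 501.021, so these deposited intensities had been scaled alike and were not normalized again. Of 24 columns, 4 held 2 arrays under both the exercise and the control label of 3 weeks, leaving 22 distinct arrays; the number of arrays limits the precision. Groups came from sample titles.

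After 59 control probe sets were left out, log2(intensity + 40) was fitted with limma 3.58.1 in R 4.3.3 for 6555 probe sets whose mean passed the 25th percentile, with an intensity trend. A model of 20 arrays in 8 groups (12 residual degrees of freedom) gave the F-test and most comparisons, and 22 arrays in 7 groups (15) those with the 3-week arrays without salt. A single array was assumed to vary like other groups. Benjamini-Hochberg adjustment ran over all tested probe sets, and a call needs an adjusted p under 0.05. Fold changes on this scale understate dim genes. Isoform balance was tested by exact permutation of arrays. Annotation gave 1 symbol for 7018 probe sets, several for 308 and none for 1473.

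Members, gene lists and the rule for named genes (all members, the 5 genes most correlated with each, and called members of the lists) were chosen with earlier results of these data known. The script was tested on simulated data. Alternatives were other pseudocounts, no filter, quantile normalization, the GAPDH ratio as covariate, array weights, other controls, other handling of the arrays with both labels, a replicate block and leaving out each array.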

Additional observations from a re-analysis of the deposited data

How the results depend on the processing

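Of 875 recomputed fold changes of the members, 862 kept their sign or shifted by less than the spread between arrays. The 862 include shifts of any size that kept the sign. For exercise against control at 6 weeks, Ckb by M57664_at went from -0.26 to -0.71 with the controls of 3 and 15 weeks. The other 13 changed sign and shifted by more than that spread. In all, 41 changed sign without a call on either side, and 0 gained a call. The count of creatine kinase probe sets differing among groups, 2 in the fit reported, was 1 with the arrays of both labels as exercise, 1 with all 24 columns as deposited and 1 without the 6-week controls, and 1 to 2 when 1 array was left out. In each of these M57664_g_at kept the call. Over all tested probe sets that test called 855, against 304 with the GAPDH covariate, 2806 with array weights, 1312 with all 24 columns and 1355 with 22 arrays in 7 groups, a fit added after the data were seen. High salt against control called 938 at 6 weeks, against 15 with the covariate, 22 with the controls of 3 and 15 weeks, 1809 with array weights and 388 with only those groups. Exercise against control called 514, against 0, 3, 1727 and 255 in the same order. At 15 weeks 470 were called, against 1034 with array weights and 268 with only those groups. With settings other than leaving out an array, the counts of the other comparisons ran from 6 to 145 for high salt at 3 weeks (10 reported), 109 to 469 for high salt at 15 against 6 weeks (209), 34 to 689 for the interaction (105), 1 to 21 for the later controls (1), 3 to 8 for high salt at 6 against 3 weeks (5), 0 to 4 for high salt against exercise (1) and 0 to 5 for exercise at 6 weeks against 3 weeks (0). With 1 array left out, the counts were 453 (without control 2 of 6 weeks) to 1013 (control 1 of 6 weeks) for the F-test, 454 (control 3) to 1229 (control 1) for high salt and 209 (control 3) to 855 (control 1) for exercise against the 6-week controls, and 218 (control 2) to 546 (control 1) at 15 weeks. They were 0 to 8 for high salt at 3 weeks, 141 to 194 for high salt at 15 against 6 weeks, 55 to 298 for the interaction, 1 to 50 for the later controls, 2 to 10 for high salt at 6 against 3 weeks, 0 to 7 for high salt against exercise and 0 to 5 for exercise against 3 weeks. The cause of these shifts was not tested. In none of these pairwise comparisons was a creatine kinase called.

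The balance for high salt against control at 6 weeks was 0.15 and changed sign with M57664_g_at, to -0.11; leaving out 1 array gave -0.35 to 0.54. Exercise against control gave 0.65 with the controls of 3 and 15 weeks, and 0.18 to 1.07 with 1 array left out. Over all weeks it was -0.45 with M57664_g_at, -0.34 without the 6-week controls, and -0.31 to -0.17 with 1 array left out. Its exact permutation p ran from 0.0163 to 0.447 over 7 settings.

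Same-numbered arrays of different groups deviated with a correlation of -0.27 to 0.24 (median -0.03, 45 pairs, 8 over 0.1), so the numbers were not taken as pairs. With the replicate block the F-test count was 2 and 0 pairwise calls were made; over all probe sets it called 771.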
